A study of Mus musculus with 3 samples.

Results

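The complement genes C1qa, C1qb, C1qc, C1ra, C1s1, C2, C4b, Cfb and C3ar1 were followed across the cell classes of the mouse aorta in 3 single-cell RNA-seq libraries. They were matched by gene symbol in the deposited gene lists, and all 9 were present among the 32285 genes listed. The libraries came from gene replacement mice in which the human APOE2, APOE3 or APOE4 gene stands in place of mouse Apoe at its own locus, on a C57BL/6J background. All mice were males, were 12 weeks old when a Western diet of 42% fat and 0.2% cholesterol was begun, and ate it for 16 weeks. The whole aorta from the arch to the iliac bifurcation was digested to a cell suspension, and the cells of each genotype were combined into 1 droplet library, from 6 mice for APOE2, 5 for APOE3 and 7 for APOE4. Every group, the APOE3 comparator included, therefore carries a human APOE gene and received the diet, and no group with mouse Apoe or on normal chow was analysed here. With 1 pooled library per genotype, mouse and library cannot be told apart from genotype, so no test between genotypes was possible. Values below are levels and ratios with 95% intervals that cover counting error only.

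Complement is a set of plasma and tissue proteins that tag particles and cells for removal. In the classical pathway the recognition molecule C1q, built from A, B and C chains, carries the proteases C1r and C1s, and active C1s cuts C4 and C2 to form a convertase for C3. Factor B provides the corresponding protease of the alternative pathway, and C3aR1 is the receptor for C3a, a small fragment released from C3. Tissue macrophages are a known source of C1q, whereas mesenchymal cells such as fibroblasts make C1r, C1s and several other components locally.

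Cells with at least 200 genes and under 20% mitochondrial UMIs (unique molecular identifiers, each standing for 1 captured transcript) were kept, which left 11772 of 12288 barcodes for APOE2, 6737 of 7247 for APOE3 and 8248 of 8971 for APOE4. Median depth was 12047, 17618 and 13521.5 UMIs per cell in that order, and 14 to 27 barcodes were shared by each pair of libraries. Cells were clustered and classes were named from fixed marker lists that held none of the 9 genes. The monocyte or dendritic list held Itgax, which is also among the other complement genes read below. The macrophage-like class (cluster 12) held 422, 117 and 131 cells in the APOE2, APOE3 and APOE4 libraries, the fibroblast-like class (clusters 5 and 9) 1229, 659 and 930, the smooth muscle-like class (8 clusters) 5290, 3666 and 5045 and the endothelial-like class 155, 33 and 37. In the macrophage-like cells all 10 macrophage markers, from Cd68 to Tyrobp, had UMIs in every library, with summed levels of 14942, 12975 and 11615 CPM (UMIs per 1000000 UMIs of the class), against 25.9, 17.3 and 37.8 CPM in smooth muscle-like cells. All 10 fibroblast markers were detected in every library of the fibroblast-like class, with 26532, 36066 and 33973 summed CPM, and they were also present in smooth muscle-like cells at 2645, 2176 and 2015 summed CPM. Of the other immune classes, T lymphocyte-like cells numbered 129, 23 and 110 and B lymphocyte-like cells 31, 10 and 278, and 4392, 2214 and 1684 cells stayed in 7 unnamed clusters, all of which kept smooth muscle markers. UMIs on the mouse Apoe gene were 191, 200.1 and 181 CPM over all cells, which does not check the human isoform. Summed counts of a whole library cannot tell fewer cells of a class from less RNA per cell, and the levels below are therefore given per class.

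Most of the genes lie in 3 small groups in the mouse genome (mm10/GRCm38, GENCODE vM21). On chromosome 4, C1qb (chr4:136880129-136886187), C1qc (chr4:136889804-136893065) and C1qa (chr4:136895917-136898803) stand side by side on the minus strand, 3616 and 2851 bases apart. On chromosome 6, C1ra (chr6:124512405-124523443, plus strand) and C1s1 (chr6:124530345-124542359, minus strand) lie 6901 bases apart, and the gene for the receptor C3ar1 (chr6:122847138-122856161, minus strand) lies on the same chromosome. On chromosome 17, Cfb (chr17:34856374-34862518) and C2 (chr17:34862604-34898265) follow each other on the minus strand with 85 bases between them, and C4b (chr17:34728380-34743882, minus strand) lies 112491 bases from Cfb. C4b, C1ra and C1s1 have near-identical copies, C4a, C1rb and C1s2, so their read assignment is uncertain, as are reads in the stretches where C1s1 overlaps Gm16567 and C2 overlaps Zbtb12. To show the starts of 1 gene of each expression pattern described below, a C1q chain, the C3a receptor and a C1 protease, the bases upstream of the RefSeq start site (GRCm38.p6, trimmed where they entered the annotated gene) are printed 5′ to 3′ on the gene's own strand. C1qb is chr4:136886201-136886450, C3ar1 is chr6:122856162-122856407 and C1s1 is chr6:124542360-124542609, all minus strand, and capitals mark the motif matches described next.
C1qb: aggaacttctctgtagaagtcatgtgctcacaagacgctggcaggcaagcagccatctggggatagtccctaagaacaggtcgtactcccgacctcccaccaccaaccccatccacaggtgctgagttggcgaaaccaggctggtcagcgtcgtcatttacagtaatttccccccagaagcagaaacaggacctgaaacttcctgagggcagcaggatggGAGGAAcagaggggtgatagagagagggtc
C3ar1: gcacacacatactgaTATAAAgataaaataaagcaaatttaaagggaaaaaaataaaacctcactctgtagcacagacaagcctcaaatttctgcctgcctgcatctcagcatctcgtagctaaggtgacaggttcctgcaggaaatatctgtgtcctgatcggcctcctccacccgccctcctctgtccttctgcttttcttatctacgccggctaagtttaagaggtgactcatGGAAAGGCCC
C1s1: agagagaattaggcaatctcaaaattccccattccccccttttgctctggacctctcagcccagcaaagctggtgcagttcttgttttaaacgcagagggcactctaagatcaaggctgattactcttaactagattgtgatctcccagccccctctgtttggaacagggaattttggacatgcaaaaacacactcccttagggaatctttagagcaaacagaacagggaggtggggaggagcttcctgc

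RefSeq promoter windows were available for 5 of the 9 genes, and C1qa, C2, C4b and Cfb are named only. The motifs were searched on both strands. The PU.1 core GAGGAA, found in 23.3% of all 32851 mouse windows of that table, matched once in C1qb, at position −30 from the start site, and once in C1qc, at −193. In C3ar1 the NF-kB motif, GGG and TTTCC with any 2 bases between them (1.41% of windows), matched on the opposite strand at −14, and TATAAA (12.4% of windows) matched at −235. The interferon response motif, GAAA and GAAA with any 2 bases between them (2.98% of windows), and the GAS motif TTCNNNGAA (7.02% of windows) matched none of the 5 genes, and no motif of the 5 matched C1ra or C1s1. These matches describe letters in the windows and were not related to expression.

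The genes divided between 2 kinds of cells. The 3 C1q chains and C3ar1 had most of their UMIs in macrophage-like cells, which were only 3.58%, 1.74% and 1.59% of the APOE2, APOE3 and APOE4 cells. Their share of a library's UMIs was 89.9%, 89.9% and 91.4% for C1qa, 90.0%, 89.1% and 89.7% for C1qb, 90.8%, 90.1% and 90.6% for C1qc and 93.4%, 89.9% and 93.0% for C3ar1. For the protease genes C1ra and C1s1 and the convertase genes C2 and Cfb, the largest share lay in fibroblast-like cells, which were 10.4%, 9.78% and 11.3% of cells. The fibroblast-like share was 48.7%, 52.6% and 59.6% for C1ra, 61.5%, 62.9% and 63.2% for C1s1, 72.4%, 69.7% and 78.2% for C2 and 75.7%, 86.6% and 89.0% for Cfb. Smooth muscle-like cells held a further 31.4%, 28.1% and 28.7% of the C1ra UMIs and 20.2%, 20.3% and 25.02% of those of C1s1. C4b, which encodes the substrate of C1s, was divided among 3 classes. Fibroblast-like cells held 57.9%, 66.1% and 75.9% of its UMIs, smooth muscle-like cells 19.1%, 5.42% and 10.1% and macrophage-like cells 9.84%, 18.9% and 8.67%. The macrophage-like cluster was built from expression that includes the C1q chains, which were among its leading genes, so their level there is a description of the cluster and not a test.

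**Figure D1:**
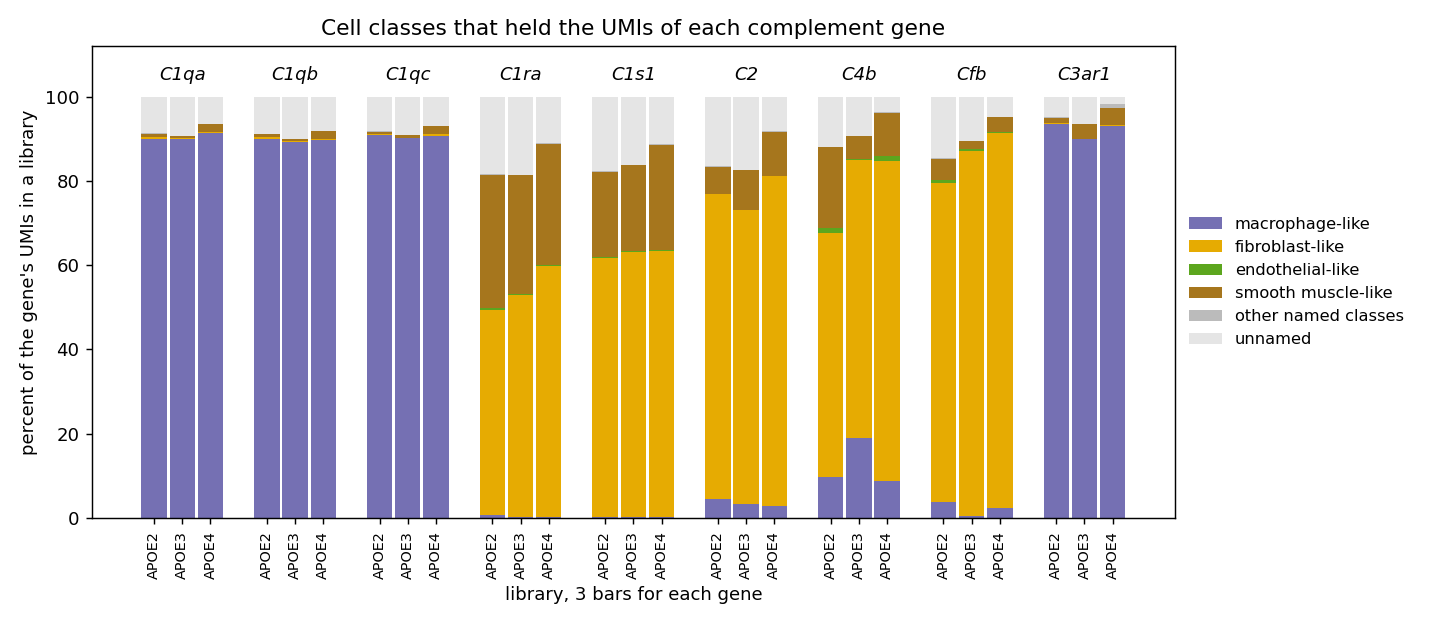
Share of each gene's UMIs (y axis, percent of the gene's UMIs in the library) that lay in each cell class (colours), with 1 bar per library (APOE2, APOE3, APOE4) for each of the 9 genes. Bars of C1qa, C1qb, C1qc and C3ar1 are mostly macrophage-like in all 3 libraries, the largest piece of those of C1ra, C1s1, C2 and Cfb is fibroblast-like, C1ra and C1s1 also have a smooth muscle-like piece, and C4b is divided among 3 classes.

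In macrophage-like cells all 3 C1q chains were highest in the APOE2 library. C1qa, the A chain, was measured at 5297 (5229.8 to 5364) for APOE2, 3929.7 (3819.9 to 4042) for APOE3 and 3343 (3249.5 to 3439) for APOE4, in CPM with 95% Poisson intervals. C1qb, the B chain, was at 4839 (4775 to 4903), 3455 (3352 to 3560.2) and 2962 (2874 to 3052) CPM in the same order. C1qc, the C chain, was at 2850.5 (2802 to 2900.0), 2368 (2283 to 2456) and 2126 (2052 to 2203) CPM. The order APOE2 above APOE3 above APOE4 held for each chain, and no 2 intervals of a chain overlapped. On the log2 scale the ratio of C1qa was 0.43 (0.39 to 0.48) for APOE2 to APOE3, −0.23 (−0.29 to −0.18) for APOE4 to APOE3 and −0.66 (−0.71 to −0.62) for APOE4 to APOE2. For C1qb the ratios were 0.49 (0.44 to 0.53), −0.22 (−0.28 to −0.16) and −0.71 (−0.76 to −0.66), and for C1qc 0.27 (0.21 to 0.33), −0.16 (−0.23 to −0.082) and −0.42 (−0.48 to −0.37). All of these lie within 2-fold. The 10 macrophage markers summed to 14942, 12975 and 11615 CPM, a sum carried by Lyz2 at 9013, 7047 and 6327 CPM. Csf1r, at 452, 653 and 522 CPM, and Adgre1, at 355, 388 and 477 CPM, were instead lowest in APOE2. The markers' part in the C1q levels was not tested. The 10 smooth muscle markers summed to 6632, 13851 and 10375 CPM in the same cells. Macrophage-like depth was close, with medians of 8379.5, 8563 and 9363 UMIs per cell. When the 70 macrophage-like cells with at least 100 UMIs on smooth muscle markers were left out, the APOE2 to APOE3 ratios became 0.29 for C1qa, 0.34 for C1qb and 0.17 for C1qc, smaller and with the same sign. C1qa was 40.8%, 40.3% and 39.7% of C1q UMIs, and C1qc was 22.0% (21.6 to 22.3), 24.3% (23.5 to 25.1) and 25.2% (24.4 to 26.0), lowest in APOE2.

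Within the macrophage-like cells, those carrying resident genes (Lyve1, Folr2, Cd163) had more C1q than the rest. Cells were called resident where they had at least 3 UMIs on these genes and more than on the foam genes Spp1, Gpnmb and Fabp5, and foam in the opposite case. There were 174, 71 and 74 resident cells in the APOE2, APOE3 and APOE4 libraries, 60, 1 and 3 foam cells, and 188, 45 and 54 cells low in both. These are ranges of a count and not cell types, and 100 of the 670 cells lay near the limit with 2 to 4 UMIs on their higher list. C1qa was 7218, 4588 and 4019.6 CPM in resident cells and 4007, 2770.0 and 2379 CPM in cells low in both, so APOE2 was highest in either range. In the 60 foam cells of the APOE2 library C1qa was 3746 CPM, below the resident cells of that library, and the other libraries had too few foam cells for a level. C1qb was 5822, 3958 and 3364 CPM in resident cells and C1qc 3765, 2807 and 2509.5 CPM. Among resident cells alone the APOE2 to APOE3 log2 ratio was 0.65 for C1qa, 0.56 for C1qb and 0.42 for C1qc, each larger than over all macrophage-like cells.

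**Figure D2:**
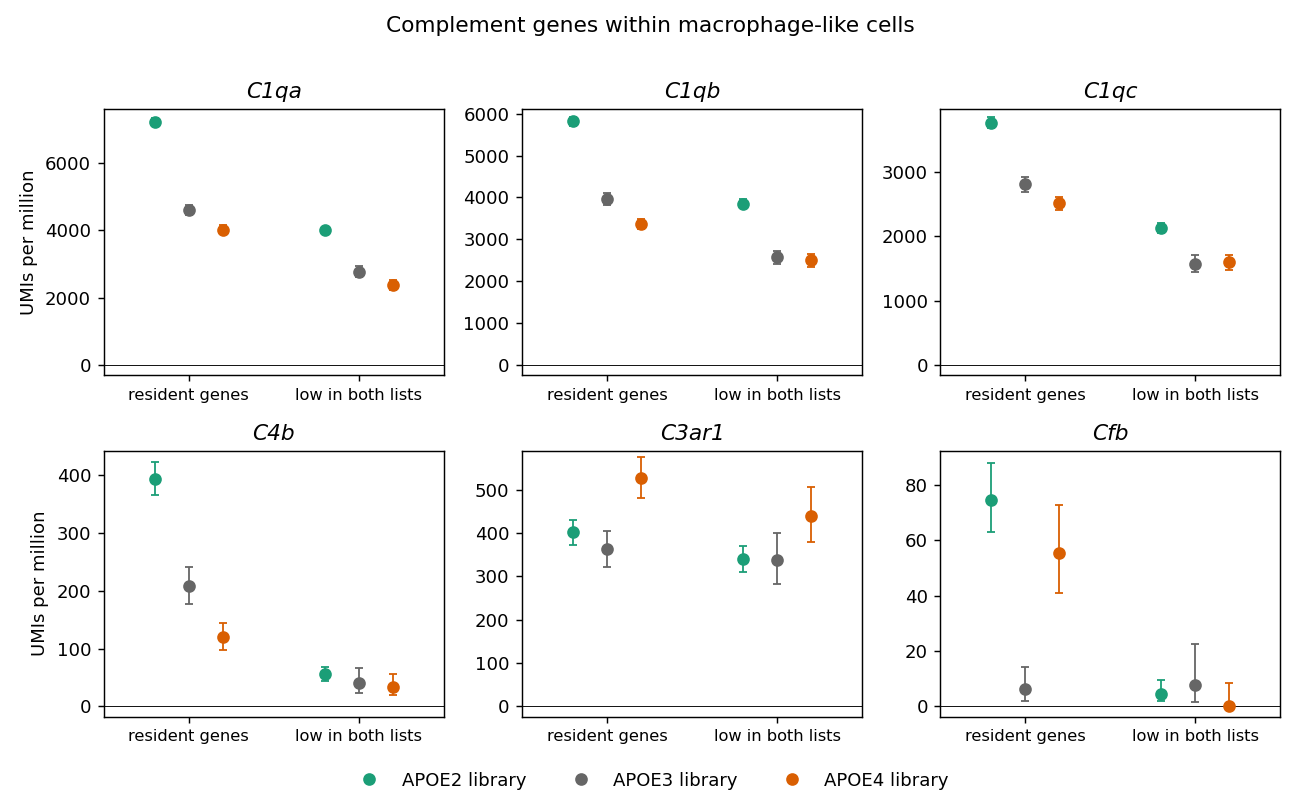
Levels of C1qa, C1qb, C1qc, C4b, C3ar1 and Cfb (y axes, CPM with 95% Poisson intervals) in macrophage-like cells with resident genes and in those low in both lists (x axis), with 1 point per library (colours). C1qa and C4b were higher in cells with resident genes than in cells low in both in every library, and APOE2 resident cells had the highest C4b (393 CPM). The Cfb point of APOE4 resident cells includes 1 cell with 30 of its 51 UMIs.

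Summed over the library, C1q in APOE2 stood further above the other 2 libraries than within the macrophage-like class. The 3 chains together made up 388 for APOE2, 107 for APOE3 and 107 for APOE4, in CPM over all cells. Per macrophage-like cell they gave 139.6, 103 and 92.9 UMIs, and macrophage-like cells were 3.58%, 1.74% and 1.59% of the cells. APOE2 was highest in each of these measures, whereas APOE3 and APOE4 were alike in the library sum. These shares are those of 1 pooled suspension per genotype, with no spread between animals.

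In the other classes with a name, C1q was far below its macrophage-like level. In smooth muscle-like cells C1qa was at 2.57 (2.24 to 2.94), 0.454 (0.316 to 0.632) and 1.00 (0.803 to 1.23) CPM, C1qb at 2.11 (1.81 to 2.44), 0.311 (0.200 to 0.463) and 0.933 (0.742 to 1.16) CPM and C1qc at 0.971 (0.773 to 1.20), 0.247 (0.148 to 0.385) and 0.705 (0.541 to 0.904) CPM, highest in APOE2 over the class. The split by cluster turned this order. In clusters 7 and 14, which are described with C4b, APOE4 was highest for every chain, with C1qa at 1.35, 0.285 and 4.27 CPM, whereas the other smooth muscle-like clusters had C1qa at 2.91, 0.481 and 0.428 CPM. C1qa rested on 220, 35 and 88 UMIs and C1qc on 83, 19 and 62. In clusters 7 and 14 the APOE4 library had 56 C1qa, 35 C1qb and 46 C1qc UMIs. Over all APOE4 smooth muscle-like cells, at most 1% of the cells had a UMI of each chain, so the top 1% necessarily held 100% of them. A single cell held up to 18, 13 and 19 UMIs of C1qa, C1qb and C1qc. In APOE2 the top 1% held 57.3%, 53.9% and 85.5%. More of the APOE2 cells had a C1qa UMI, as given below without thinning, so these shares are not compared between libraries. After each cell was thinned to 1000 UMIs, 0.192% (0.0920 to 0.352), 0.0550% (0.00666 to 0.199) and 0.0805% (0.0219 to 0.206) of smooth muscle-like cells had a C1qa UMI, against 83.7% (79.8 to 87.1), 82.9% (74.8 to 89.2) and 85.4% (78.1 to 91.0) of macrophage-like cells (exact Clopper-Pearson intervals). Without thinning the shares were 2.76%, 0.955% and 0.714% of smooth muscle-like cells, at a median depth of 14492.5, 20001 and 15347 UMIs, and 90.3%, 93.2% and 91.6% of macrophage-like cells. Smooth muscle cells are not a known source of C1q, and their shares are taken here as its background level. Where these UMIs came from was not tested. The summed C1q of the smooth muscle-like cells held 45.5% (41.0 to 50.1), 44.9% (33.6 to 56.6) and 37.9% (31.7 to 44.5) C1qa, and each interval overlapped that of the macrophage-like cells of its library. C1qc made up 17.2% (13.9 to 20.9), 24.4% (15.3 to 35.4) and 26.7% (21.1 to 32.9), below the macrophage-like interval in APOE2 and overlapping it in the other two. Fibroblast-like cells had 6.29 (5.09 to 7.69), 0.826 (0.332 to 1.70) and 1.37 (0.747 to 2.29) CPM of C1qa. T lymphocyte-like cells had 14, 0 and 0 C1qa UMIs and B lymphocyte-like cells 13, 0 and 5. In B lymphocyte-like cells the 3 chains together were at 107 CPM for APOE2 (23 UMIs, 31 cells). For APOE4 they were at 4.95 CPM (7 UMIs, 278 cells). The source of these few lymphocyte-like UMIs was not tested.

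C3ar1, the C3a receptor, followed the C1q chains in its place but not in its order among libraries. In macrophage-like cells it was at 354 (337 to 372) for APOE2, 352 (320.1 to 387) for APOE3 and 479 (444 to 516) for APOE4, in CPM, so that APOE4 was highest and the APOE2 and APOE3 intervals overlapped. Its log2 ratio was 0.0074 (−0.15 to 0.16) for APOE2 to APOE3, 0.44 (0.27 to 0.62) for APOE4 to APOE3 and 0.43 (0.30 to 0.56) for APOE4 to APOE2, within 2-fold in each case. In resident cells it was 402 (374 to 431), 362 (322 to 406) and 527 (481 to 576) CPM, again highest in APOE4. The share of macrophage-like cells with a C3ar1 UMI at 1000 UMIs per cell was 29.98% (25.6 to 34.6), 30.8% (22.6 to 40.0) and 36.9% (28.6 to 45.8), and these 3 intervals overlapped. In smooth muscle-like cells C3ar1 was at 0.269, 0.221 and 0.353 CPM from 23, 17 and 31 UMIs, and at 1000 UMIs no fibroblast-like cell had one, which allows a share of up to 0.244%, 0.457% and 0.323%.

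C1ra and C1s1, the genes of the C1 proteases, were highest in fibroblast-like cells and lay within 2-fold between the 3 libraries there. In fibroblast-like cells C1ra was at 233 (226 to 241) for APOE2, 269 (258 to 280.3) for APOE3 and 223 (214 to 232) for APOE4, in CPM. C1s1 was at 198 (191 to 206), 213 (204 to 223) and 164 (157 to 172) CPM. Both were highest in APOE3, and APOE4 was lowest for C1s1, whereas the C1ra intervals of APOE2 and APOE4 overlapped. The log2 ratio of C1ra was −0.21 (−0.28 to −0.13) for APOE2 to APOE3, −0.27 (−0.36 to −0.19) for APOE4 to APOE3 and −0.065 (−0.14 to 0.011) for APOE4 to APOE2, and that of C1s1 was −0.10 (−0.19 to −0.019), −0.38 (−0.47 to −0.28) and −0.27 (−0.36 to −0.19). Thinned to 1000 UMIs, 22.9% (20.5 to 25.3), 23.4% (20.2 to 26.9) and 21.4% (18.8 to 24.2) of fibroblast-like cells had a C1ra UMI, against 2.21%, 1.38% and 1.05% of smooth muscle-like cells and 1.20%, 0.855% and 0% of macrophage-like cells, where the zero of APOE4 allows up to 2.31%. Unthinned, the fibroblast-like share was 84.6%, 90.6% and 82.2%. C1s1 made up 46.0% (44.8 to 47.2), 44.2% (42.7 to 45.8) and 42.4% (40.9 to 44.0) of the UMIs of the 2 protease genes in fibroblast-like cells and 30.2% (28.6 to 31.8), 32.4% (30.3 to 34.7) and 37.8% (35.5 to 40.1) in smooth muscle-like cells. In each library the intervals of the 2 classes did not overlap.

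The wall's smooth muscle-like cells carried less of both. C1ra was at 26.6 (25.5 to 27.7), 15.8 (14.9 to 16.7) and 12.5 (11.8 to 13.3) CPM and C1s1 at 11.5 (10.8 to 12.2), 7.58 (6.97 to 8.22) and 7.58 (7.01 to 8.18) CPM, highest in APOE2 for both. The log2 ratio of C1ra was 0.75 (0.65 to 0.85) for APOE2 to APOE3, −0.34 (−0.46 to −0.22) for APOE4 to APOE3 and −1.09 (−1.19 to −0.98) for APOE4 to APOE2. For C1s1 it was 0.60 (0.45 to 0.75), near 0 (−0.16 to 0.16) and −0.60 (−0.75 to −0.46). The difference of APOE2 lay in smooth muscle-like clusters 7 and 14, which are described with C4b. There C1ra was 74.8, 29.1 and 27.6 CPM and C1s1 25.4, 8.54 and 11.2 CPM, whereas in the 6 other smooth muscle-like clusters C1ra was 13.2, 13.7 and 9.84 CPM and C1s1 7.63, 7.42 and 6.94 CPM. Without clusters 7 and 14 the APOE2 to APOE3 ratio was −0.048 for C1ra and 0.040 for C1s1. Endothelial-like cells had C1ra at 26.8 (18.8 to 37.1), 55.3 (27.6 to 98.9) and 42.6 (18.4 to 84.0) CPM from 36, 11 and 8 UMIs, and these intervals overlapped. Their C1s1 rested on 6, 6 and 2 UMIs.

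Of the 5 genes found chiefly in wall cells, C4b had the widest differences between libraries in fibroblast-like and smooth muscle-like cells. It encodes complement C4, which C1s cleaves to begin the convertase. In fibroblast-like cells C4b was at 331 (321 to 339.9) for APOE2, 76.3 (70.5 to 82.4) for APOE3 and 107 (101 to 113) for APOE4, in CPM. APOE2 stood far above the others and APOE4 above APOE3, with no overlap of the intervals. The log2 ratio was 2.12 (2.00 to 2.24) for APOE2 to APOE3, 0.49 (0.34 to 0.63) for APOE4 to APOE3 and −1.63 (−1.73 to −1.54) for APOE4 to APOE2. At 1000 UMIs per cell 23.8% (21.5 to 26.3), 7.15% (5.30 to 9.40) and 8.49% (6.78 to 10.5) of fibroblast-like cells had a C4b UMI, and 62.2%, 34.7% and 33.5% did without thinning, at medians of 10492, 11230 and 9688 UMIs per cell. The APOE3 and APOE4 shares are read for no order. The 10 fibroblast markers summed to 26532, 36066 and 33973 CPM in the class, lowest in APOE2 and carried by Dcn, whereas Dpt was at 679, 646 and 652 CPM. Their part in the C4b level was not tested. The APOE2 excess was present in both fibroblast-like clusters. Cluster 5, led by Fmod, Hhip and Inmt, had 207, 51.0 and 74.7 CPM, and cluster 9, led by Opcml and Dpp4, had 426, 115 and 173 CPM. Cluster 9 made up 643 of 1229 fibroblast-like cells in APOE2, 232 of 659 in APOE3 and 270 of 930 in APOE4. Taken alone it gave an APOE2 to APOE3 ratio of 1.89. Fibroblast-like cells were also split by UMIs of Hhip and Inmt against Dpp4 and Pi16, with at least 3 on the higher list. C4b was 340, 63.3 and 103 CPM in Hhip and Inmt cells and 304, 80.4 and 103 CPM in Dpp4 and Pi16 cells. APOE2 was highest in either set, but the gap between clusters 5 and 9 did not appear between these sets.

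Among smooth muscle-like cells C4b was at 19.3 (18.4 to 20.2) for APOE2, 0.688 (0.515 to 0.899) for APOE3 and 1.65 (1.39 to 1.94) for APOE4, in CPM, from 1649, 53 and 145 UMIs. The log2 ratio was 4.81 (4.42 to 5.23) for APOE2 to APOE3, 1.26 (0.80 to 1.74) for APOE4 to APOE3 and −3.55 (−3.80 to −3.30) for APOE4 to APOE2. Most of these UMIs lay in clusters 7 and 14. Cluster 7, led by Spp1, Vcam1, Anxa8, Lcn2, Timp1 and Cxcl1, had 670, 325 and 457 cells, and cluster 14, led by Fgf12, Adamtsl1, Dlx5 and Tfap2b, had 255, 117 and 204. Cluster 14 had 2 pericyte markers raised, Rgs5 and Kcnj8. At resolution 1.6 a cluster of 257, 117 and 202 cells with its leading genes was again smooth muscle-like. The name of cluster 7 depended on the clustering. At resolution 0.4 an unnamed cluster of 301, 100 and 94 cells was led by Spp1, Anxa8, Vcam1, Lcn2 and Timp1. It kept 2 of the 10 smooth muscle markers. At resolution 1.6 an unnamed cluster of 259, 46 and 40 cells with these leading genes kept 0. Both had Dcn and Lum raised. Clusters 7 and 14 together were 17.5%, 12.1% and 13.1% of smooth muscle-like cells and held 85.2%, 66.0% and 75.9% of their C4b UMIs. The level was 75.7, 3.32 and 8.38 CPM in these clusters and 3.64, 0.271 and 0.468 CPM in the others. APOE2 was highest in each set, and without clusters 7 and 14 the log2 ratio was 3.75 for APOE2 to APOE3 and 0.79 for APOE4 to APOE3. The levels without these clusters rested on 244, 18 and 35 UMIs, so the 3.75 met the 50-UMI limit only through APOE2. In APOE2, 1% of all smooth muscle-like cells held 48.2% of the C4b UMIs of the class, with at most 40 in a cell. At 1000 UMIs per cell 1.57% of APOE2 and 0.221% of APOE4 smooth muscle-like cells had a C4b UMI, and none of APOE3 did, which allows up to 0.0825%. Smooth muscle cells were also called cell by cell, as cells with at least 8 smooth muscle markers and under 3 of any other list. This left 968, 202 and 345 cells. There C4b was too sparse for a ratio to APOE3 (under 50 UMIs in the 2 libraries), and its log2 ratio of APOE4 to APOE2 was −0.50 in place of −3.55.

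The summed fibroblast markers were also highest in APOE2 in these clusters, while single markers were not all so. The 10 fibroblast markers, all detected, summed to 6396, 3849.8 and 4332 CPM in clusters 7 and 14 and to 1605, 1911 and 1608 CPM in the other smooth muscle-like clusters. Dcn, a matrix proteoglycan of fibroblasts, was at 2451, 787 and 1112 CPM in clusters 7 and 14. Lum, another matrix proteoglycan, was at 1405, 139 and 154 CPM, whereas Pdgfra, at 22.0, 24.1 and 30.9 CPM, Dpt, at 22.4, 18.7 and 35.04 CPM, and Pi16, at 18.6, 13.3 and 30.3 CPM, were highest in APOE4. Spp1, which encodes osteopontin, was at 676, 8.01 and 3.34 CPM over all smooth muscle-like cells, and Lcn2, an iron-binding protein induced in inflammation, at 162, 0.0908 and 0.0114 CPM, nearly all in APOE2. Where cells with any UMI of 6 fibroblast markers were left out, which kept 3391, 2613 and 3778 smooth muscle-like cells, C4b was 4.30, 0.251 and 0.523 CPM and the APOE2 to APOE3 ratio 4.10. These levels rested on 210, 13 and 32 UMIs, so the ratio met the 50-UMI limit only through APOE2. The fibroblast markers' part in the C4b level of clusters 7 and 14 was otherwise not tested. The macrophage markers summed to 42.5, 28.4 and 62.1 CPM there.

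**Figure D3:**
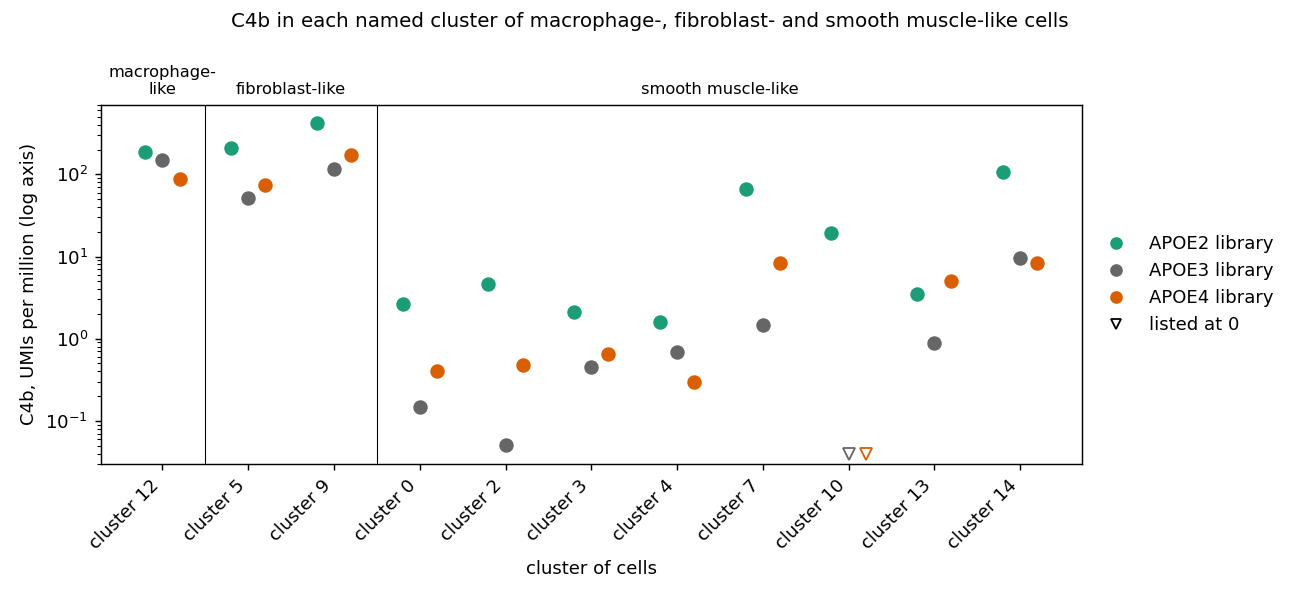
C4b level (y axis, CPM, log scale) in each macrophage-like, fibroblast-like and smooth muscle-like cluster (x axis) for the APOE2, APOE3 and APOE4 libraries (colours), with open triangles where no UMI was found. APOE2 is highest in fibroblast-like clusters 5 (207 CPM) and 9 (426 CPM) and in smooth muscle-like cluster 7 (65.4 CPM). Smooth muscle-like clusters 7 and 14 together had 75.7 CPM in APOE2, above cluster 7 alone, so cluster 14 stood above cluster 7 in that library.

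In macrophage-like cells C4b was at 187 (175 to 200.2), 149.9 (129 to 173) and 86.6 (72.1 to 103) CPM, highest in APOE2 and lowest in APOE4. The log2 ratio was 0.32 (0.089 to 0.56) for APOE2 to APOE3, −0.79 (−1.13 to −0.46) for APOE4 to APOE3 and −1.11 (−1.39 to −0.84) for APOE4 to APOE2. It was higher in cells with resident genes, with 393 (365 to 422), 208 (177 to 241) and 119 (98.0 to 144) CPM there against 55.2, 40.9 and 33.8 CPM in cells low in both and 13.4 CPM in the APOE2 foam cells. The 10 fibroblast markers summed to 777, 779 and 1328 CPM in macrophage-like cells, with Dcn at 209, 89.9 and 480.3 CPM and Pi16 at 8.38, 45.4 and 4.85 CPM. The single markers were in different orders, and their part in the C4b level was not tested. At 1000 UMIs per cell the share of macrophage-like cells with a C4b UMI was 15.6% (12.2 to 19.4), 17.1% (10.8 to 25.2) and 10.8% (6.01 to 17.4), and these intervals overlapped. Endothelial-like cells held 99, 2 and 20 C4b UMIs, at 73.7 (59.9 to 89.7), 10.0 (1.22 to 36.3) and 107 (65.1 to 165) CPM, so that the APOE3 level rested on 2 UMIs, with a log2 ratio of 2.87 (0.98 to 5.94) for APOE2 to APOE3 and 0.53 (−0.24 to 1.24) for APOE4 to APOE2. In the APOE2 library 32 of the 99 endothelial-like UMIs came from 1 cell. The endothelial-like cells also held smooth muscle markers at 6076, 1633 and 1653 summed CPM and fibroblast markers at 1941, 3009 and 1349, with Dcn at 1043, 296 and 101 CPM, and their part in the C4b ratio was not tested. The order of classes by C4b level differed between libraries. In APOE2 it ran from fibroblast-like over macrophage-like and endothelial-like to smooth muscle-like cells, in APOE3 macrophage-like cells were above fibroblast-like ones, and in APOE4 the endothelial-like interval overlapped both. T lymphocyte-like cells had 2, 0 and 2 C4b UMIs.

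Cfb, the gene of the alternative-pathway protease factor B, was highest in fibroblast-like cells and lay within 2-fold between libraries there. In fibroblast-like cells it was at 209 (202 to 216) for APOE2, 170.1 (161 to 179) for APOE3 and 191 (183 to 199.9) for APOE4, in CPM, with log2 ratios of 0.30 (0.21 to 0.39) for APOE2 to APOE3, 0.17 (0.070 to 0.27) for APOE4 to APOE3 and −0.13 (−0.21 to −0.045) for APOE4 to APOE2. Cluster 5 had 210.3, 160.0 and 167 CPM and cluster 9 208, 186 and 241 CPM. The share of fibroblast-like cells with a Cfb UMI at 1000 UMIs was 18.6%, 15.2% and 18.0%, against 0.460%, 0.0825% and 0.0805% of smooth muscle-like cells. In macrophage-like cells Cfb was at 35.1 (29.8 to 40.9), 6.48 (2.80 to 12.8) and 35.3 (26.3 to 46.5) CPM from 159, 8 and 51 UMIs. APOE3 was lowest, with log2 ratios of 2.43 (1.42 to 3.67) for APOE2 to APOE3 and 2.45 (1.36 to 3.73) for APOE4 to APOE3. In the APOE4 library 30 of the 51 UMIs came from 1 cell, and without the top cell of each library the ratio of APOE4 to APOE3 was 1.598 and that of APOE4 to APOE2 changed from 0.012 to −1.14. Without these cells APOE4 and APOE3 together had under 50 UMIs, too few for a call, so the 1.598 is not read as one. In resident cells Cfb was 74.8 (63.0 to 88.1), 6.14 (1.99 to 14.3) and 55.3 (41.2 to 72.7) CPM, from 143, 5 and 51 UMIs. All 51 APOE4 UMIs lay in resident cells, so the 1 cell with 30 of them is part of that level. The smooth muscle-like level of Cfb was 2.47 (2.15 to 2.82), 0.454 (0.316 to 0.632) and 0.922 (0.732 to 1.15) CPM, with 9.97, 1.99 and 5.18 CPM in clusters 7 and 14. Its log2 ratio of 1.02 for APOE4 to APOE3 became −0.28 without those clusters, from 13 UMIs in APOE4 and 14 in APOE3. That is too few for a call, so the −0.28 is not read as one.

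C2, whose product combines with C4 in the classical convertase, lies next to Cfb and was also highest in fibroblast-like cells. There it was at 45.8 (42.4 to 49.3), 52.7 (47.9 to 57.8) and 53.6 (49.2 to 58.3) CPM, with APOE2 lowest by a small margin. The log2 ratios were −0.20 (−0.38 to −0.026) for APOE2 to APOE3, 0.025 (−0.16 to 0.21) for APOE4 to APOE3 and 0.23 (0.062 to 0.39) for APOE4 to APOE2. It was sparse elsewhere, with 42, 21 and 20 UMIs and 9.26 (6.67 to 12.5), 17.0 (10.5 to 26.0) and 13.9 (8.47 to 21.4) CPM in macrophage-like cells and 0.690, 0.791 and 0.842 CPM in smooth muscle-like cells. The shares at 1000 UMIs were 5.61%, 5.94% and 5.70% of fibroblast-like cells and 1.68%, 1.71% and 3.08% of macrophage-like cells. Cluster 9 had 39.7, 23.6 and 37.7 CPM of C2 and cluster 5 53.6, 71.7 and 61.2 CPM. APOE2 was lowest in cluster 5 alone, whereas APOE3 was lowest in cluster 9, so the class order did not hold in both clusters.

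**Figure D4:**
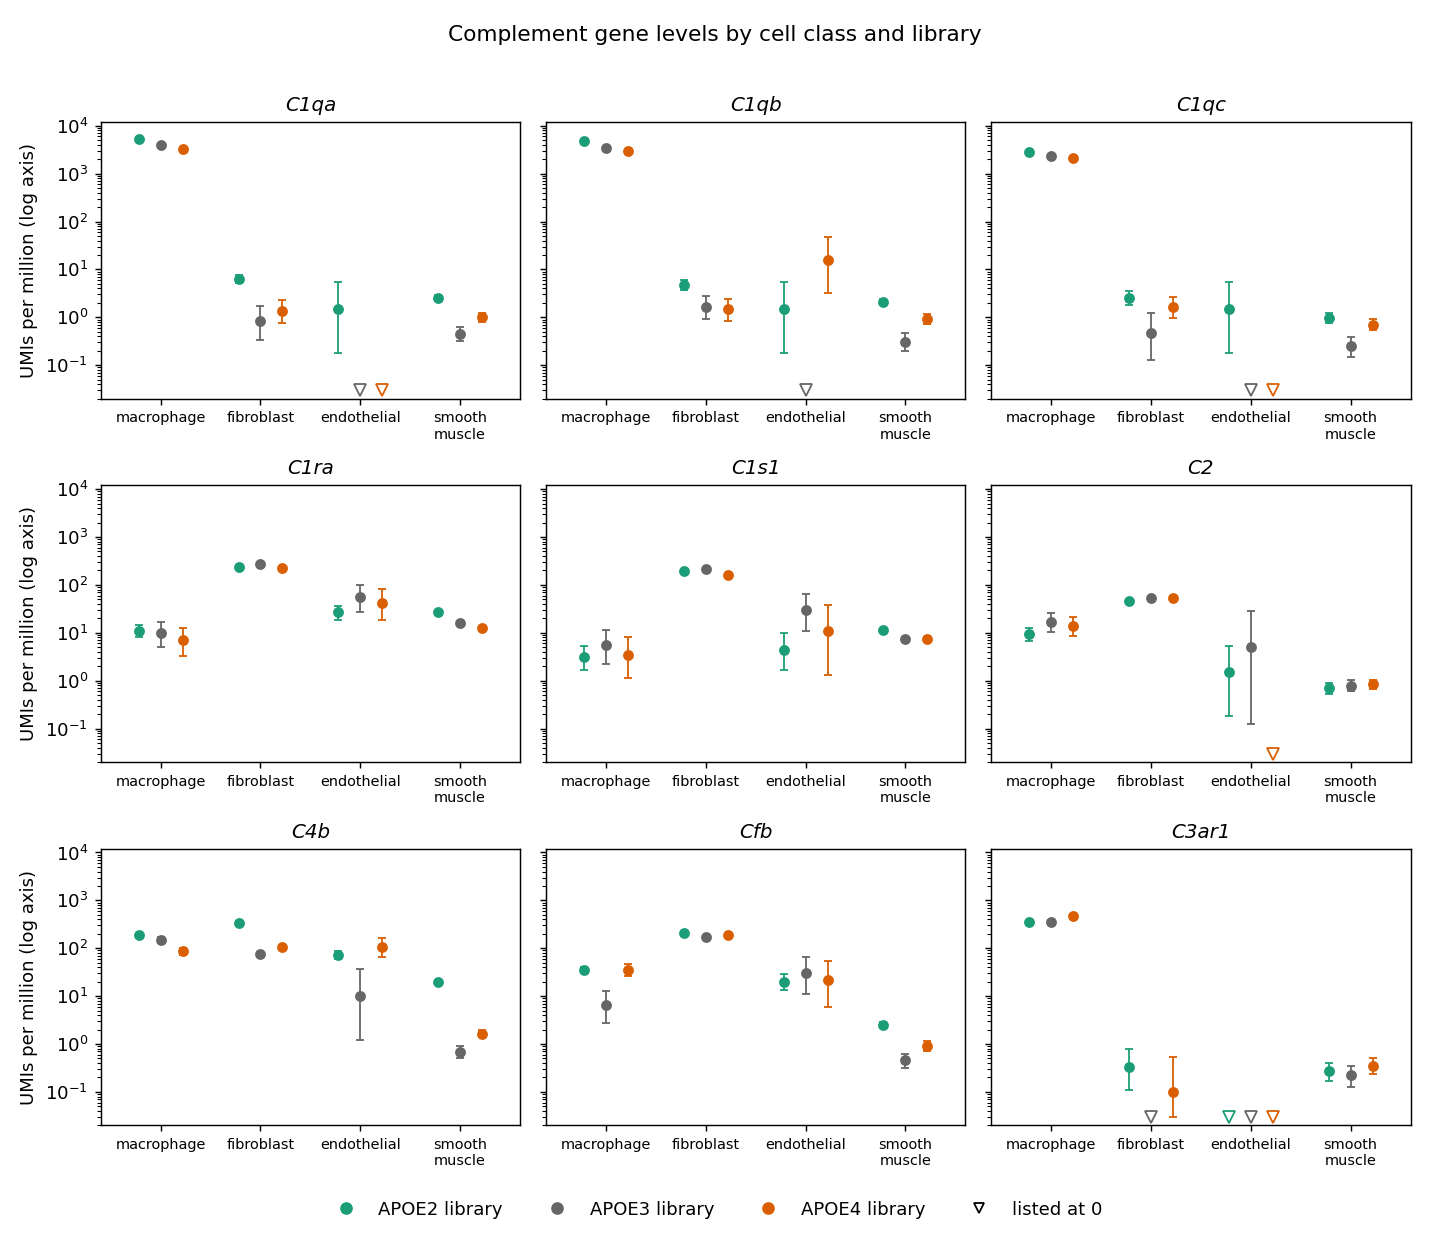
Level of each of the 9 genes (y axes, CPM with 95% Poisson intervals, log scale) in macrophage-like, fibroblast-like, smooth muscle-like and endothelial-like cells, with 1 point per library (colours) and open triangles where no UMI was found. The C1q chains and C3ar1 peak in macrophage-like cells, C1ra, C1s1, C2 and Cfb in fibroblast-like cells, and C4b differs most between libraries in smooth muscle-like cells.

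The counts of genes past 2-fold were read against all genes with at least 50 UMIs in the 2 libraries together. In macrophage-like cells 8 of the 9 complement genes had enough UMIs for APOE2 to APOE3, of which 1 (Cfb) was at least 2-fold higher and none lower, while 3.31% and 2.55% of all genes were higher and lower. For APOE4 to APOE3 it was again Cfb of 6, against 2.71% and 1.7%, and for APOE4 to APOE2 C4b of 8 was lower, against 3.06% and 3.17%. In fibroblast-like cells C1qa, C1qb and C4b of 7 were higher for APOE2 to APOE3, against 2.01% and 1.53%, none of 5 for APOE4 to APOE3, against 1.82% and 0.887%, and the same 3 of 8 were lower for APOE4 to APOE2, against 2.04% and 2.48%. C1q was low in fibroblast-like cells but above its smooth muscle-like level in APOE2, with the 3 chains together at 13.7 CPM against 5.65 CPM. In APOE2, 1% of the fibroblast-like cells held 69.5% of the 95 C1qa UMIs and 57.5% of the 73 C1qb UMIs. Where these UMIs came from was not tested. In smooth muscle-like cells 5 of 8 (the C1q chains, C4b and Cfb) were higher for APOE2 to APOE3, against 3.57% and 0.78%, with a median log2 ratio of 2.21 beside 0.03 over all genes. This count and median include the 3 C1q chains at what is taken as their background level, and without them C4b and Cfb were 2 of 5. The same 5 of 8 were higher for APOE4 to APOE3, against 3.16% and 0.776%, and C1qa, C1qb, C1ra, C4b and Cfb of 9 were lower for APOE4 to APOE2, against 2.85% and 3.72%. In endothelial-like cells only C4b had enough UMIs, and it was higher for APOE2 to APOE3, against 7.4% and 5.29%, and not past 2-fold for APOE4 to APOE2, against 4.32% and 8.92%. None of the 9 could be compared there for APOE4 to APOE3, where 5.03% and 4.96% of all genes were past 2-fold. The APOE2 and APOE4 comparisons share the APOE3 library, and a low APOE3 level enters both. Some calls against APOE3 met the 50-UMI limit only through the library where the gene was higher. These were C1qa and C1qb in fibroblast-like cells and the C1q chains and Cfb in smooth muscle-like cells. Cfb in macrophage-like and C4b in endothelial-like cells were further cases. So were C1qa and C1qb in fibroblast-like cells for APOE4 to APOE2. The limit favours such calls, and their number is not read as a result.

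Taking every cluster with smooth muscle markers, the 7 unnamed ones included, 5 of 9 genes were higher for APOE2 to APOE3 (5.37% and 0.835% of all genes higher and lower), none was past 2-fold for APOE4 to APOE3 (3.8% and 0.835%) and 5 were lower for APOE4 to APOE2 (3.45% and 5.32%). The APOE4 to APOE3 count in smooth muscle-like cells therefore depended on which clusters carried the name. That set includes unnamed cluster 20, a group of 224 cells with all 10 macrophage markers raised beside smooth muscle markers. C1qa was at 2146, 3147 and 2022 CPM there, highest in APOE3, unlike in macrophage-like cells.

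**Figure D5:**
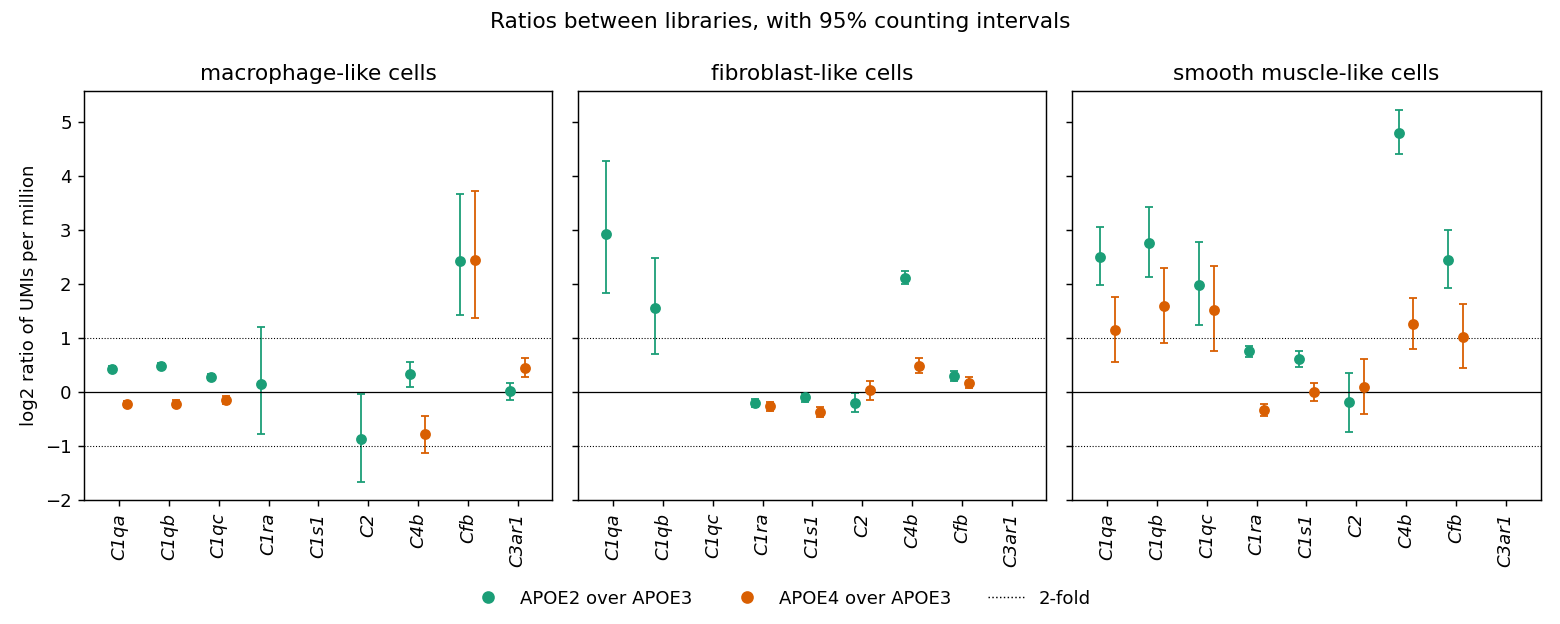
Log2 ratio of CPM (y axis, with 95% counting intervals) of each gene with at least 50 UMIs in the 2 libraries, for APOE2 to APOE3 and APOE4 to APOE3 (colours), in macrophage-like, fibroblast-like and smooth muscle-like cells, with dotted lines at 2-fold. C4b is at 2.12 in fibroblast-like and 4.81 in smooth muscle-like cells for APOE2 to APOE3, whereas C1ra and C1s1 stay within 0.38 of 0 in fibroblast-like cells.

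The genes with the most similar pattern were found by the Pearson correlation of log2(CPM + 1) over 12 points, the 4 classes in 3 libraries, among 15415 genes. These points share their libraries and 4 cell classes, so the coefficients describe class pattern and carry no p. C1qa was nearest Tyrobp (0.997), Ccl12 (0.996) and Cd53 (0.995), C1qb Lyz2 (0.998), Fcer1g (0.997) and Wfdc17 (0.996), C1qc Cd53 (0.999), Cybb (0.998) and Lcp1 (0.998) and C3ar1 Adgre1 (0.9995), Blnk (0.999) and Aif1 (0.999), and among these Tyrobp, Lyz2 and Adgre1 are macrophage markers of the fixed list. C1ra was nearest Pkd2 (0.988), Smoc2 (0.985) and B130024G19Rik (0.982) and C1s1 Celf2 (0.989), Plxdc2 (0.988) and Pcolce (0.980). Coefficients were lower for the other genes, with C2 nearest Zfp385a (0.964), Chd9 (0.955) and Dpp4 (0.947), C4b Atad2b (0.946), Clcn6 (0.934) and Atrnl1 (0.920) and Cfb Tor2a (0.951), Eya4 (0.946) and Lrrk1 (0.940). Between the genes themselves, C1qa and C1qc correlated at 0.998 and C1ra and C1s1 at 0.963. With Spearman's correlation of CPM, 0 to 2 of the 3 nearest genes of each were shared.

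The rest of the complement system was read from a list of 45 genes. Here too some calls for APOE2 to APOE3 met the 50-UMI limit only through APOE2, where the gene was higher. Among them were C6, Cd55 and Itgax in macrophage-like, Masp1 in fibroblast-like and C7 in smooth muscle-like cells. The limit favours such calls, and neither their number nor the medians that include them are read as a result. In macrophage-like cells 18 of them could be compared for APOE2 to APOE3, of which 5 were at least 2-fold higher and 1 lower. Of all genes 3.31% were higher and 2.55% lower. The median log2 ratio was 0.42 over these 18 and −0.026 over all genes. For APOE4 to APOE3 1 of 14 was higher and none lower, against 2.71% and 1.7% of all genes. For APOE4 to APOE2 1 of 18 was higher and 3 were lower, against 3.06% and 3.17%. The medians were 0.022 and −0.47, beside −0.026 and −0.0059 over all genes. Fcna, which encodes the lectin ficolin A, was at 149, 53.5 and 67.9 CPM, with a log2 ratio of 1.48 (1.11 to 1.86) for APOE2 to APOE3. C6, a component of the membrane attack complex, was at 19.2, 4.05 and 2.77 CPM, with 2.24 (0.97 to 3.90) for APOE2 to APOE3 and −2.79 (−4.70 to −1.38) for APOE4 to APOE2. Of the membrane regulators, Cd55, which speeds the decay of convertases, was at 19.2, 7.29 and 13.9 CPM, and its ratio was 1.40 (0.40 to 2.57) for APOE2 to APOE3. Cd59a, an inhibitor of the membrane attack complex, was highest in APOE4, at 10.1, 13.0 and 31.2 CPM, with 1.27 (0.42 to 2.19) for APOE4 to APOE3 and 1.62 (0.99 to 2.25) for APOE4 to APOE2. Itgax, a subunit of complement receptor 4, was at 41.0, 17.0 and 13.9 CPM, with −1.56 (−2.31 to −0.90) for APOE4 to APOE2. C5ar1, the C5a receptor, was among the genes of the list with most UMIs in this class, at 314, 301 and 306 CPM.

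Fibroblast-like cells showed few differences among the other complement genes. For APOE2 to APOE3 1 of 16 was higher and 1 lower, none of 15 was past 2-fold for APOE4 to APOE3, and 2 of 16 were lower for APOE4 to APOE2. The shares of all genes higher and lower were 2.01% and 1.53%, 1.82% and 0.887%, and 2.04% and 2.48% in that order. The median log2 ratios were −0.051, −0.14 and −0.24, beside −0.016, −0.098 and −0.063 over all genes. In the lectin pathway, the collectin gene Colec11 was at 8.67, 31.1 and 15.6 CPM, with a log2 ratio of −1.84 (−2.15 to −1.53) for APOE2 to APOE3. The protease gene Masp1 was at 4.63, 2.13 and 1.46 CPM, with 1.12 (0.36 to 1.96) for APOE2 to APOE3 and −1.66 (−2.57 to −0.84) for APOE4 to APOE2. C3, the central component on which all pathways meet, was at 1365, 713 and 588 CPM, with −1.21 (−1.26 to −1.17) for APOE4 to APOE2, so that APOE2 was highest for C3 as for C4b. Serping1, which encodes the C1 inhibitor, was at 1798, 2040.1 and 1958 CPM, among the genes of the list with most UMIs.

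Among smooth muscle-like cells 4 of 19 were higher for APOE2 to APOE3, 2 of 19 were higher for APOE4 to APOE3 and 4 of 19 were lower for APOE4 to APOE2. The shares of all genes higher and lower were 3.57% and 0.78%, 3.16% and 0.776%, and 2.85% and 3.72% in that order. The median log2 ratios were 0.16, −0.19 and −0.27, beside 0.032, −0.077 and −0.10 over all genes. C3 was at 38.0, 2.02 and 1.77 CPM, with a log2 ratio of 4.23 (3.997 to 4.47) for APOE2 to APOE3 and −4.42 (−4.66 to −4.19) for APOE4 to APOE2. Csmd1, a membrane regulator of complement, was at 18.3, 0.727 and 1.98 CPM, with 4.66 (4.27 to 5.07), 1.45 (1.00 to 1.91) for APOE4 to APOE3 and −3.21 (−3.45 to −2.99) for APOE4 to APOE2. Both lay mostly in the clusters that held C4b. Clusters 7 and 14 had 91.5%, 53.8% and 67.9% of the C3 UMIs of the class and 95.8%, 82.1% and 89.1% of its Csmd1 UMIs. C7, a membrane attack component, was at 0.667, 0.169 and 0.455 CPM, with 1.98 (1.10 to 2.98) for APOE2 to APOE3 and 1.43 (0.50 to 2.46) for APOE4 to APOE3. These C7 levels rest on few UMIs, and C7 was the first leading gene of the fibroblast-like cluster at resolution 0.4. Where its smooth muscle-like UMIs came from was not tested. Cd55 was at 3.61, 1.71 and 1.33 CPM, with −1.44 (−1.76 to −1.13) for APOE4 to APOE2. The regulator gene Clu, which encodes clusterin, was at 887, 902 and 774 CPM, among the genes with most UMIs.

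Endothelial-like cells, with 33 to 155 cells a library, had 1 of 11 other complement genes lower for APOE2 to APOE3, none of 5 past 2-fold for APOE4 to APOE3, and 2 of 11 higher and 1 lower for APOE4 to APOE2. The shares of all genes higher and lower were 7.4% and 5.29%, 5.03% and 4.96%, and 4.32% and 8.92% in that order. The medians were 0.077, −0.022 and −0.27, beside 0.021, 0.029 and −0.056 over all genes. Csmd1 was at 143, 854 and 986 CPM, lowest in APOE2, with a log2 ratio of −2.58 (−2.88 to −2.27) for APOE2 to APOE3 and 2.79 (2.49 to 3.09) for APOE4 to APOE2. Cd59a was at 63.3, 100.5 and 165 CPM, with 1.38 (0.74 to 1.99) for APOE4 to APOE2. C3 rested on 62, 8 and 0 UMIs. Clu was at 2497, 1397 and 1338 CPM and again among the genes with most UMIs.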

How the data were processed

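Per the file headers, Cell Ranger 7.0.1 was run by the authors, whose methods name mm10 and print another version, and the deposited values were raw UMI counts per gene and barcode, not normalized, in a filtered matrix for each genotype. Genes were matched by symbol (32158 of 32285 had a position in GENCODE vM21). Cells with at least 200 genes and under 20% mitochondrial UMIs were kept, normalised with sctransform 0.4.2 (3000 features), integrated with Seurat 5.3.0 by canonical correlation (30 components) and clustered by Louvain at resolution 0.8 in R 4.3.3. A cluster was named where at least 3 markers of 1 of 19 lists were raised at least 2-fold, unless it kept smooth muscle markers. No other list could have more markers among its 10 leading genes. Clusters were smooth muscle-like where at least 8 of 10 smooth muscle markers were kept and under 3 of any other list were raised. In these no marker of another list was among the 10 leading genes. Shallow clusters with none of their own markers among the 10 stayed unnamed. Doublets were kept. Scrublet (scanpy 1.11.5) with its own threshold called 1, 0 and 2 cells and so had not worked, and the 9.42%, 5.39% and 6.60% of cells with the highest scores were left out as an alternative.

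Within each class and library, a gene's UMI counts were totalled and divided by all UMIs there (CPM). Intervals were exact Poisson for a level, exact conditional binomial for a ratio and Clopper-Pearson for a share, at 95%, with scipy 1.17.1. Precision followed class depth, from 33 endothelial-like cells in APOE3 to 5290 smooth muscle-like cells in APOE2. Ratios were called at 2-fold or more where both libraries together had at least 50 UMIs. A count of 0 allows up to 3 counts. Scripts were tested on simulated data. The 9 genes and all gene and marker lists were chosen with earlier results of these data known. Other complement genes were named at 2-fold or more, at most 3 per class and comparison by size, with the 2 highest per class (1 of these genes is not reported here), and for each of the 9 genes the 3 nearest by correlation. The alternatives were other filters, resolutions, class rules, scalings and thinning depths. CPM came from 3′ tags, so levels of different genes were not compared. Promoter sequences were from RefSeq, GRCm38.p6.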

Additional observations from a re-analysis of the deposited data

Results flagged for a closer look

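The APOE4 to APOE3 comparison had opposite signs in smooth muscle-like and macrophage-like cells for 4 genes, while the difference itself was not tested because each genotype had 1 library. The smooth muscle-like log2 ratio minus the macrophage-like one was 1.37 for C1qa (1.14 against −0.23), 1.81 for C1qb (1.58 against −0.22) and 1.67 for C1qc (1.52 against −0.16). The smooth muscle-like C1q values rested on 483, 78 and 232 UMIs of the 3 chains for APOE2, APOE3 and APOE4, and their sign changed with how the class was drawn. For C4b the difference was 2.05 (1.26 in smooth muscle-like against −0.79 in macrophage-like cells).

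For APOE2 to APOE3 the signs were opposite in smooth muscle-like and fibroblast-like cells for C1ra and C1s1, also untested. The smooth muscle-like log2 ratio minus the fibroblast-like one was 0.96 for C1ra (0.75 against −0.21) and 0.71 for C1s1 (0.60 against −0.10). Without smooth muscle-like clusters 7 and 14 the smooth muscle-like ratios were −0.048 and 0.040.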

How the results depend on the processing

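Directions were stable to the filters on cells and less so to the way classes were drawn. With at least 1000 UMIs per cell and with a filter of at least 500 genes and under 10% mitochondrial UMIs, all 67 log2 ratios of the complement genes kept their sign, and 67 of 69 did so without the highest Scrublet scores. Unnamed cluster 20, which lies outside the macrophage-like class, had APOE3 above APOE2 for every C1q chain. Within macrophage-like cells the C1q ratios kept their sign in every setting tried. For C1qa, C1qb and C1qc, APOE2 to APOE3 was 0.29, 0.34 and 0.17 without cells holding at least 100 smooth muscle UMIs, 0.25, 0.29 and 0.16 as a mean of each cell's CPM, and 0.65, 0.56 and 0.42 in resident cells. APOE4 to APOE3 was −0.14 for C1qa and −0.13 for C1qb without the highest Scrublet scores, and −0.15 for C1qb and −0.074 for C1qc with classes set cell by cell. Classes set cell by cell held other sets of cells, with 6367, 3456 and 4139 fibroblast-like and 968, 202 and 345 smooth muscle-like cells in APOE2, APOE3 and APOE4. For C4b in fibroblast-like cells, these classes gave 2.53 for APOE2 to APOE3 and 0.66 for APOE4 to APOE3, and cluster 9 alone 1.89 for APOE2 to APOE3.

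In smooth muscle-like cells C4b for APOE2 to APOE3 stayed high, at 3.26 at Louvain resolution 0.4, 3.96 at resolution 1.6, 3.88 over all clusters with smooth muscle markers, 4.24 as a mean of each cell's CPM, 3.75 without clusters 7 and 14 and 4.10 without cells with a fibroblast marker. For APOE4 to APOE3 it was 0.080, 0.51, 0.52 and, without clusters 7 and 14, 0.79. Without clusters 7 and 14 APOE3 had 18 C4b UMIs, and without cells with a fibroblast marker it had 13. In these 2 settings the APOE2 to APOE3 ratio met the 50-UMI limit only through APOE2. C1ra for APOE2 to APOE3 was −0.11 at resolution 0.4, −0.0052 at resolution 1.6, −0.97 cell by cell, 0.49 over all clusters with smooth muscle markers, 0.44 as a mean of each cell's CPM, −0.048 without clusters 7 and 14 and −0.17 without cells with a fibroblast marker. C1s1 was −0.047, −0.0023, −0.30, and in the last 2 settings 0.040 and 0.12. For APOE4 to APOE3, C1ra was −0.51 at resolution 0.4, −0.65 cell by cell and −0.47 without clusters 7 and 14, and C1s1 −0.30 cell by cell. The signs of several APOE4 to APOE3 ratios reversed. C1qa was −0.72 at resolution 0.4, −3.16 cell by cell, −0.25 over all clusters with smooth muscle markers and −0.17 without clusters 7 and 14. C1qb was −0.13 at resolution 0.4 and −0.039 over all such clusters, and C1qc −0.24, −0.019 and, without clusters 7 and 14, −0.34. Cfb was −0.027 at resolution 0.4, −0.37 at resolution 1.6, −0.11 over all such clusters and −0.28 without clusters 7 and 14. Without clusters 7 and 14, C1qc rested on 18 UMIs in APOE3 and 16 in APOE4, and Cfb on 14 and 13. Both are under the 50-UMI limit, so these 2 values are not read as reversals. For APOE4 to APOE2, classes set cell by cell gave 0.32 for C1ra and 2.24 for Cfb. With classes set cell by cell, C4b had too few UMIs for a ratio to APOE3 and gave −0.50 for APOE4 to APOE2. At resolutions 0.4 and 1.6 the clusters led by Spp1, Vcam1 and Lcn2 were unnamed and so lay outside the smooth muscle-like class. The cause of the shifts in this paragraph was not tested.

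The count of genes at least 2-fold higher in smooth muscle-like cells for APOE4 to APOE3 was 5, and 0 at resolution 0.4, over all clusters with smooth muscle markers and cell by cell, 3 at resolution 1.6 and without cells with a fibroblast marker, and 1 without clusters 7 and 14. For APOE2 to APOE3 it was 4 to 7 in all settings except cell by cell, where it was 0. For APOE4 to APOE2 the count lower was 5, and 3 at resolution 1.6 and without cells with a fibroblast marker and 0 cell by cell. In fibroblast-like cells cluster 9 alone gave 1 in place of 3 both for APOE2 to APOE3 and for APOE4 to APOE2. In macrophage-like cells the 1 gene lower for APOE4 to APOE2 became 0 without the highest Scrublet scores and cell by cell. At 1.5-fold it became 4 of 8, where 10.1% of all genes were lower. The other counts of this paragraph are given without the share over all genes in each setting and are read only for how they moved.

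Leaving out clusters 7 and 14, cells with a fibroblast marker, single fibroblast-like clusters, macrophage-like cells other than resident ones and top cells was chosen after seeing the data. No paired analysis was possible because each genotype had 1 pooled library and the labels carry no replicate numbers. For the same reason no library could be left out. Depth limits C2 and Cfb outside fibroblast-like cells and C1s1 outside fibroblast-like and smooth muscle-like cells. It also limits all 9 genes in endothelial-like cells, where only C4b passed 50 UMIs. Classes were rebuilt here and may differ from the study's.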

Other observations

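Cells outside the named classes also carried these genes. Unnamed cluster 20, with 140 cells in APOE2, 33 in APOE3 and 51 in APOE4, had all 10 macrophage markers raised and kept smooth muscle markers, at a depth below the named classes. It had C1qb at 1972, 2778 and 2257 CPM, C1qc at 1097, 1643 and 1440.2 CPM and C3ar1 at 73.9, 59.8 and 41.5 CPM, in the order APOE2, APOE3 and APOE4, and C1ra at 19.9, 9.96 and 0 CPM. APOE3 was highest and APOE2 lowest for both C1q chains, so the macrophage-like order of libraries did not hold in this cluster. The C3ar1 and C1ra levels rest on few UMIs at this depth, and no order of the libraries is read from them.

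Unnamed cluster 11 had 7 fibroblast markers raised, kept smooth muscle markers and held 427, 246 and 247 cells. The fibroblast complement genes were present in it, with C1ra at 80.9, 83.4 and 78.3 CPM, C1s1 at 83.5, 62.4 and 48.5 CPM, Cfb at 61.7, 60.9 and 35.3 CPM and C2 at 14.9, 36.3 and 20.1 CPM. C4b was at 104, 16.0 and 18.7 CPM there, so APOE2 was the highest library for C4b in this cluster too. No C3ar1 UMI was found in its 920 cells.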
